A study of Oryza sativa with 12 samples.

Results

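Heat against control was examined in panicles of the rice (Oryza sativa) cultivar Nagina 22 (N22), on 6 of the 12 Affymetrix arrays of a series that also holds the cultivar IR64. The members are the 3 arrays titled as heat-stressed N22 and the 3 titled as N22 control, with all probe sets except the array's own controls. N22 heat panicles came from main tillers tagged at booting, in a phenotyping facility then held 5 °C above the outside temperature for 8 days and nights. N22 control panicles came from plants in the open field next to it, and heat and growing site therefore cannot be told apart. The labels call N22 heat tolerant and IR64 susceptible, and IR64 was sampled in the same 2 conditions with 3 arrays each. Grain storage transcripts were abundant on all 6 N22 arrays and near background on all 6 IR64 arrays, with values given where the cultivars are set side by side. The labels do not say whether the 3 arrays of a group hold separate plants, and p-values reflect only how far these samples spread, which may be technical.

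Plants meet heat with heat stress transcription factors, which switch on genes of chaperones. Small heat shock proteins hold unfolding proteins in a soluble state, HSP100 proteins (the ClpB family) pull aggregates apart, and HSP90 proteins mature signalling proteins. A rice panicle at and after flowering holds green floral bracts, anthers, ovaries and, once fertilised, grains that fill with starch and storage protein.

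Values are log2 expression values, and a difference is the mean of the 3 N22 heat arrays minus the mean of the 3 N22 control arrays, with the standard error (SE) of a linear model fitted to all 12 arrays in limma. Calls were made where the p adjusted by Benjamini-Hochberg was under 0.05. Of 29801 probe sets tested, 15412 (51.7%) were called, 7121 (23.9%) higher and 8291 (27.8%) lower in N22 heat. By at least 2-fold, 5084 (17.1%) were called, 3270 higher and 1814 lower. With each gene read from its brightest probe set, 10142 of 16069 genes (63.1%) were called, 4761 (29.6%) higher and 5381 (33.5%) lower, with a median of -0.015 over all genes. Counts of gene lists below are to be read beside these shares. With arrays centred on their medians, the median difference over probe sets was -0.20, against -0.01 as deposited, with 5563 called higher and 13431 lower, and 2655 higher and 2894 lower by at least 2-fold. That scaling lowers every difference by about the same amount, so rises smaller than this shift have no settled direction. Falls become larger under it. Heat and control arrays correlated at 0.950 to 0.958, heat arrays among themselves at 0.996 to 0.997 and control arrays at 0.994 to 0.995.

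A level of 4.20, the highest value of the array's reporter probe sets, served as background. A group with all 3 arrays no higher than this has no measured level, and the fold, written "at least", then sets the brighter group's mean against 4.20. In N22 heat, 640 probe sets were above background on all 3 arrays while all 3 N22 control arrays were at or under it. The opposite held for 328 probe sets.

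**Figure D1:**
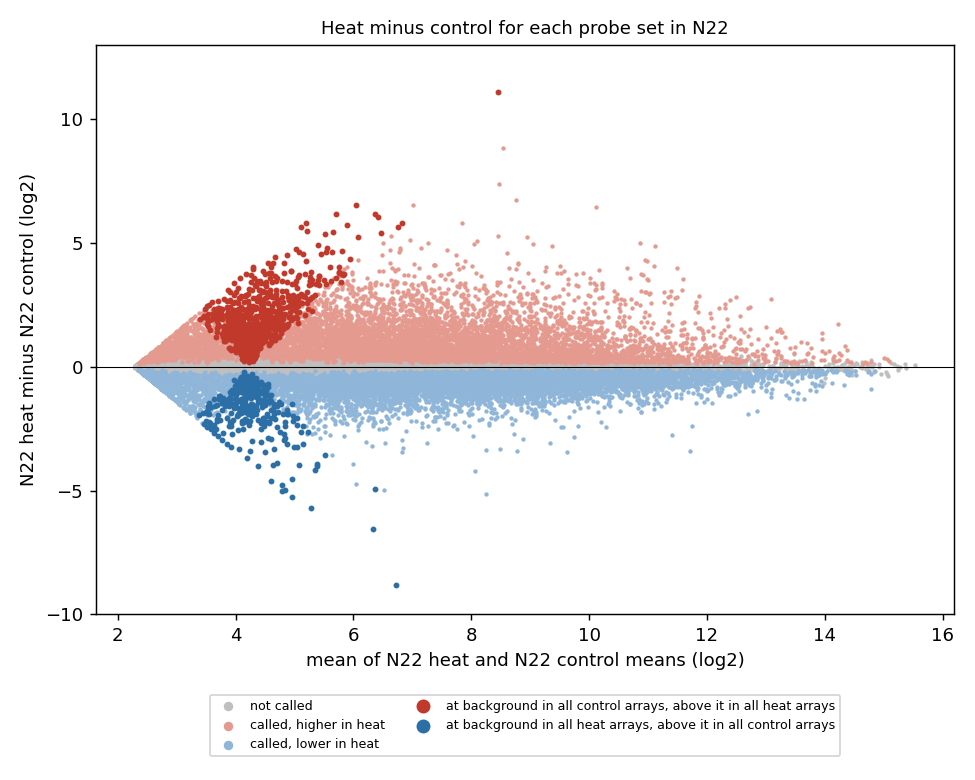
Difference between N22 heat and N22 control (log2, vertical axis) against the mean of both group means (log2, horizontal axis), with 1 point per tested probe set. Dark red points are the 640 probe sets (those of them that were tested) above background only in heat and dark blue points the 328 above background only in control; the highest point is HSP21.9 and the lowest LOC4323973, both plotted at fitted values (11.09 and -8.82) although one group of each was at background.

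Small heat shock protein genes were higher in N22 heat almost throughout: 18 of 19 were called higher and 1 lower, against 29.6% and 33.5% of all genes, with a list median of 2.22, or 2.06 with values raised to background. HSP21.9 (LOC4350180) had 14.00, 14.03 and 13.98 in N22 heat, against 2.29, 4.16 and 2.29 in N22 control. Every control array lay at or under background, and the gene was at least 892-fold higher in heat (adjusted p = 9.7e-09, limma). HSP16.9B (LOC4325698) had 10.43, 10.37 and 10.06 in N22 heat, against 3.46, 3.59 and 4.22 in N22 control, a difference of 6.53 ± 0.19 (SE, 3 arrays per group). HSP23.2 (LOC4335956) had 13.34, 13.40 and 13.28 in N22 heat, against 6.66, 6.98 and 7.02 in N22 control. The groups of these genes lie far apart, and the heat arrays differ among themselves by less than 0.4 on the log2 scale.

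The members differed in how much transcript the control panicles already held. HSP16.9A (LOC4325697) had 13.95, 13.97 and 14.02 in N22 heat, against 12.53, 12.59 and 12.60 in N22 control, so a gene near the top of the scale in both groups differed by 1.40 ± 0.065. HSP16.0 was at least 3.86-fold higher, from background in control. At the low end, HSP17.8 had 3.82, 4.33 and 4.37 in N22 heat, against 2.78, 2.35 and 2.35 in N22 control, and HSP16.6 had 4.25, 2.61 and 3.97 in N22 heat, against 2.36, 2.58 and 2.58 in N22 control. Both pairs of groups lie almost wholly at background, and their sizes carry no fold. HSP18.0 (LOC4325342) was read in opposite directions by its 2 probe sets. The plain one had 11.09, 11.13 and 11.07 in N22 heat, against 5.41, 5.93 and 6.09 in N22 control, a difference of 5.29 ± 0.14. The shared one, a probe set that can match several transcripts, had 9.03, 9.05 and 8.91 in N22 heat, against 10.16, 10.12 and 10.15 in N22 control. It is the brighter over the 12 arrays and is the 1 fall in the list's count. Among 2322 genes with several tested probe sets, 134 (5.77%) had calls in both directions.

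**Figure D2:**
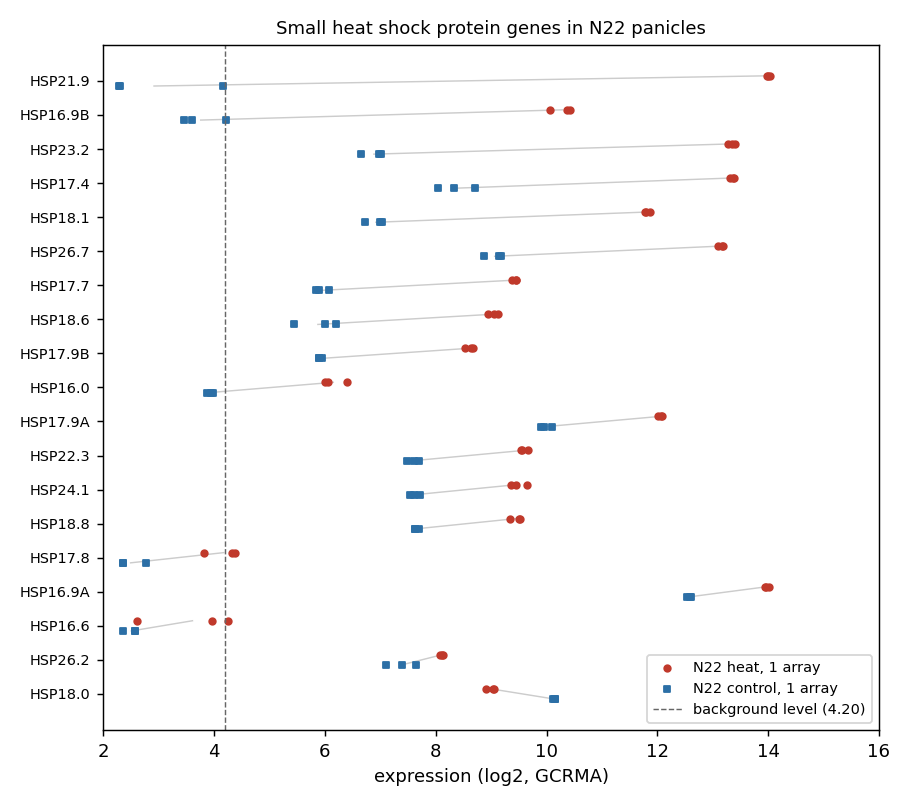
Expression (log2, horizontal axis) of the 19 small heat shock protein genes on each N22 array, with heat arrays as red circles above control arrays as blue squares and the background level as a dashed line. Heat arrays lie right of control arrays for 18 genes, and HSP18.0 on its shared probe set is the exception.

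Other chaperones tested differed less, but their list held only 6 genes, all of the HSP90 and HSP100 families. No HSP70 gene was among them, and CLPB-M was at background in both N22 groups. CLPB1, the cytosolic HSP100, had 8.72, 8.80 and 8.64 in N22 heat, against 7.57, 7.52 and 7.39 in N22 control, a difference of 1.23 ± 0.078. The HSP90 genes stood near the top of the scale in both groups: HSP81-2 averaged 14.22 in N22 heat and 14.23 in N22 control and was not called, while HSP81-1 fell by 0.27 and HSP81-3 (shared probe set) by 0.30. On dimmer probe sets these falls were larger, 0.81 for a second one of HSP81-1 and 1.15 for another shared one of HSP81-3. The plastid CLPB-C fell by 0.54. Of 19 heat stress transcription factor genes tested, 6 were higher, 3 lower and 10 not called. The higher share was near the 29.6% over all genes, of which 33.5% were lower. The list median was 0.06, or -0.14 under median centring, where 5 were higher and 6 lower. HSFC1B (LOC4324158) had 8.46, 8.52 and 8.69 in N22 heat, against 6.49, 6.63 and 6.60 in N22 control. HSFB2C (LOC4347637) had 9.13, 9.21 and 8.95 in N22 heat, against 7.21, 7.27 and 7.22 in N22 control, and both of its plain probe sets rose by 1.87. Its shared probe set was at background in N22 control. HSFA9 (shared probe set), known from developing seeds of sunflower and Arabidopsis, rose by 1.63 ± 0.12. Neither the 2 probe sets of HSFA2A nor the 2 of HSFA2C passed the test. Protein folding genes of the endoplasmic reticulum split, with 8 of 20 higher and 7 lower, beside 29.6% and 33.5% over all genes. Their median was 0.14, or -0.06 under median centring. The calreticulin gene CRO1 (shared probe set) rose by 1.39 ± 0.067 and BIP1 by 0.79 ± 0.098, while the disulfide isomerase gene PDIL1-5 (shared probe set) fell by 1.66 ± 0.16.

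Several of the largest differences belonged to genes without an informative name. LOC9267997 had 12.21, 12.22 and 12.03 in N22 heat, against 4.61, 4.94 and 4.78 in N22 control, a difference of 7.37 ± 0.15. LOC4325998 had 12.22, 12.03 and 12.12 in N22 heat, against 5.74, 5.34 and 5.15 in N22 control. A probe set paired with no gene had 12.99, 12.87 and 12.99 in N22 heat, against 3.81, 5.16 and 3.45 in N22 control. In the other direction, LOC4323973 had 2.29, 2.32 and 2.32 in N22 heat, against 11.16, 11.09 and 11.16 in N22 control, at least 122-fold lower. LOC4333535 was at least 10.6-fold lower, and LOC4332927 fell by 5.13 ± 0.13. Separate probe sets paired with no gene were at least 42.2-fold and 15.4-fold lower. The 15.4-fold one has the same identifier stem as the probe set of LOC4323973, so it may read the same transcript. LOC4323973 and LOC4333535 averaged 2.32 in both IR64 groups, at background.

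Photosynthesis genes were mostly higher in N22 heat, where 29.6% of all genes were higher and 33.5% lower. Of 12 genes of the photosystems and electron transport, 11 were called higher and 1 lower, with a median of 2.57, and of 22 genes of the Calvin cycle, chlorophyll synthesis and plastid nitrogen, 15 were higher, 1 lower and 6 not called, with a median of 1.72. PSAH, a photosystem I subunit, had 11.80, 11.75 and 12.01 in N22 heat, against 8.96, 8.89 and 9.23 in N22 control. LFNR1, a ferredoxin-NADP reductase of leaves, had 10.49, 10.28 and 10.50 in N22 heat, against 7.49, 7.35 and 7.60 in N22 control, while another reductase gene, FNR (LOC4334338), fell by 0.75 ± 0.068. The groups are apart for both genes, in opposite directions. Rubisco activase, rca (shared probe set), had 10.95, 10.77 and 10.92 in N22 heat, against 7.64, 7.52 and 7.37 in N22 control. CHLH (shared probe set), a subunit of the magnesium chelatase of chlorophyll synthesis, was at least 4.69-fold higher. GS2, the plastid glutamine synthetase, had 11.41, 11.32 and 11.53 in N22 heat, against 7.99, 7.84 and 7.79 in N22 control.

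Genes that build and protect plastids were more often higher than lower, where 29.6% of all genes were higher and 33.5% lower. Of 23 genes of plastid proteases and assembly, 13 were higher and 2 lower (median 0.37), led by THF1 (shared probe set), of thylakoid formation, at 2.75 ± 0.15, and the plastid translocase gene CpSecY at 2.55 ± 0.16. FTSH3, in the list by its symbol alone, fell by 1.04 ± 0.22, and whether it acts in plastids was not tested. Of 22 genes of isoprenoid, carotenoid and tocopherol synthesis, 14 were higher and 5 lower (median 0.83). The phytoene synthase genes PSY3 and PSY1 (shared probe set) rose by 2.03 ± 0.20 and 1.87 ± 0.13, CLA1, the first enzyme of the plastid isoprenoid pathway, by 1.89 ± 0.15, and the vitamin E genes HGGT and VTE1 fell by 0.84 and 0.71. Among 37 genes of ascorbate, superoxide, catalase and peroxidase metabolism, 22 were higher and 9 lower; the list median was 0.19, or -0.01 under median centring. The ascorbate peroxidase gene APX8 had 9.80, 9.54 and 10.03 in N22 heat, against 7.01, 7.0 and 6.23 in N22 control, and SODCC.1, a copper-zinc superoxide dismutase, fell by 1.11 ± 0.08. In nitrogen assimilation, the glutamate synthase gene GLT2 had 8.87, 8.55 and 8.76 in N22 heat, against 4.26, 4.52 and 3.91 in N22 control, nitrate reductase NIA1 rose by 2.41 ± 0.15, and the dehydrogenase gene GDH2 fell by 1.73 ± 0.056.

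The summed level of the 3 green tissue markers found (RBCS, PETE and OEE3, all on shared probe sets and all called higher) was 14.81 to 14.91 in N22 heat and 11.78 to 11.99 in N22 control. All 3 are also members of the photosynthesis lists above, so their sum is no separate reading of green tissue. In whole panicles, fewer cells of a type and less RNA per cell cannot be told apart, and the part that the share of green tissue had in these results was not tested. Markers of other tissues moved too. Of 9 floral organ markers, 6 were called higher and 1 lower, with a summed level of 11.02 to 11.25 in N22 heat and 9.93 to 10.05 in N22 control, and of 5 markers of dividing cells 4 were lower, at 10.21 to 10.25 in N22 heat and 11.13 to 11.18 in N22 control. The 6 anther tapetum markers found had 4 at background on all N22 arrays. The 4 developing grain markers summed to 16.23 to 16.32 in N22 heat and 16.39 to 16.48 in N22 control, so panicles of both groups carried abundant grain transcripts.

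**Figure D3:**
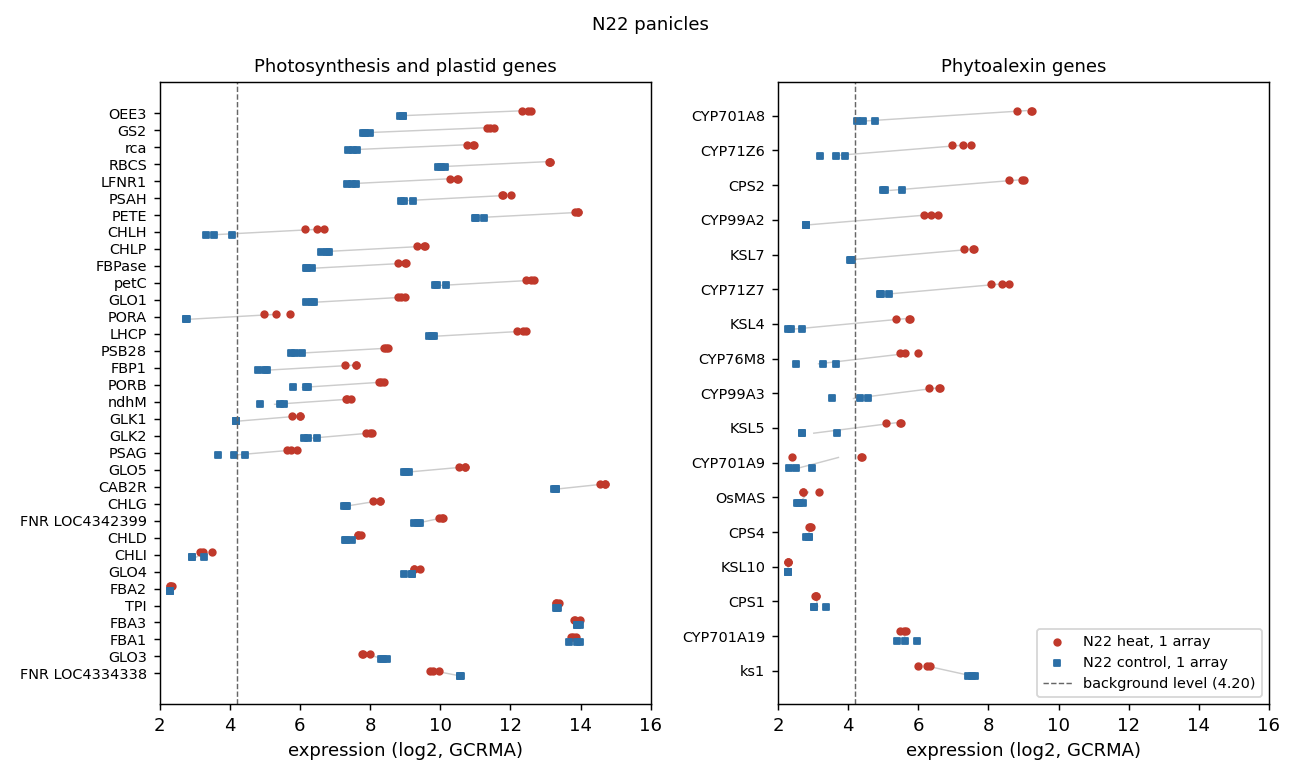
Expression (log2, horizontal axes) of photosynthesis and plastid genes (left) and phytoalexin genes (right) on each N22 array, with heat arrays as red circles above control arrays as blue squares and the background level as a dashed line. OEE3 leads the left panel with a difference of 3.57 and CYP701A8 the right panel with 4.61, and FNR (LOC4334338), GLO3 and ks1 lie lower in heat.

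Diterpenoid phytoalexins are antimicrobial compounds of rice, made by synthases (CPS and KSL) and cytochrome P450 enzymes whose genes lie in clusters. Of 17 such genes tested, 10 were called higher, 1 lower and 6 not called, with a median of 2.35, or 1.41 with values raised to background. CYP701A8 had 9.23, 8.82 and 9.22 in N22 heat, against 4.42, 4.25 and 4.76 in N22 control, a difference of 4.61 ± 0.14. The synthase gene CPS2 had 8.96, 8.57 and 9.01 in N22 heat, against 5.55, 5.06 and 4.99 in N22 control. CYP71Z6 was at least 8.24-fold and CYP99A2 at least 4.46-fold higher. The exception was ks1 (shared probe set), the kaurene synthase gene of gibberellin synthesis, with 6.24, 5.99 and 6.33 in N22 heat, against 7.62, 7.55 and 7.43 in N22 control. Of 12 defence protein genes, 9 were higher and 0 lower (median 2.13). Chitinase Cht4 had 12.89, 12.50 and 12.86 in N22 heat, against 8.35, 9.57 and 9.83 in N22 control, where the arrays spread by more than 1 log2 unit. NH1, the rice counterpart of the Arabidopsis salicylic acid receptor NPR1, was at least 5.21-fold higher. It belongs to another list, of receptor kinases and immunity, where 12 of 34 genes were higher and 8 lower. That list had a median of 0.06, or -0.13 under median centring.

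Called genes also lay near each other in gene order. In the assembly ASM3414082v1, 52 runs of at least 3 neighbouring tested genes were called in the same direction by at least 2-fold. Of these runs, 46 were higher and 6 lower in heat, and they held 174 genes. Untested genes were passed over, so members of a run can have other genes between them. Calls of at least 2-fold in either direction covered 19.7% of all genes tested. How many runs that share alone would give was not tested. In 10 of the runs a member had both group means under background, and with every value raised to background, as was done after seeing the data, 32 runs with 107 genes were left, 31 higher and 1 lower. The longest, on chromosome 2, held 7 genes: CYP76M8, LOC4329723, KSL7, CYP71Z6, CYP71Z7, CPS2 and KSL5, with differences, after values were raised to background, of 1.5, 1.48, 3.28, 3.04, 3.34, 3.65 and 1.16. On chromosome 3, HSP17.4, HSP18.1, HSP17.7, the fructose bisphosphatase gene FBPase and LOC4332365 differed by 5.00, 4.89, 3.49, 2.70 and 1.21. On chromosome 1, HSP17.9B, HSP16.9A and HSP16.9B differed by 2.70, 1.40 and, with values raised to background, 6.08. Of the chromosome 2 genes, only CYP71Z7 and CPS2 were above background in N22 control. Clustered genes can be alike in sequence, and whether probes of one bound transcripts of another was not tested.

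Regulators moved in both directions, beside 29.6% higher and 33.5% lower over all genes. Of 9 MYB genes, 6 were higher and 1 lower (median 0.95), with MYBS1 (shared probe set), of the sugar response, at 2.90 ± 0.12. BHLH172 had 6.97, 6.71 and 6.99 in N22 heat, against 2.45, 2.45 and 2.45 in N22 control, at least 6.44-fold higher, while 7 of the 9 bHLH genes were not called. DOF4 rose by 3.08 ± 0.075. HAP3I (shared probe set), an NF-Y subunit gene, was at least 4.92-fold higher, whereas 6 of the 11 NF-Y genes fell, HAP5B by 1.01 and HAP3A by 0.74. Of 21 cytokinin genes, 10 were higher and 7 lower, the lower share being near that over all genes. The rises were led by the response regulator genes RR4 (shared probe set) at 1.93 ± 0.13 and ORR3 at 1.83 ± 0.15. The calcium-regulated kinase gene CIPK14 (shared probe set) had 8.43, 8.53 and 8.39 in N22 heat, against 4.95, 4.75 and 5.24 in N22 control, but the 79 calcium signalling genes split into 26 higher and 22 lower, or 21 and 27 under median centring. IAA14, an auxin response repressor, had 4.94, 5.07 and 4.85 in N22 heat, against 7.20, 7.07 and 7.08 in N22 control.

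Cell wall genes rose in part, beside 29.6% higher and 33.5% lower over all genes. Of 27 genes of expansins, xyloglucan and pectin modification, 14 were higher and 6 lower (median 0.40). FOR1, an inhibitor of polygalacturonase, was at least 4.51-fold and the beta-expansin gene EXPB10 at least 3.79-fold higher, while the expansin genes EXP2 and EXPB11 fell by 1.92 and 1.88. Of 44 genes of cell wall synthesis, 20 were higher and 5 lower (median 0.19), but 17 and 12 under median centring, with a median of -0.0043. The endoglucanase gene GLU5 rose by 3.74 ± 0.17 and the mannan synthase gene CSLA9 fell by 2.11 ± 0.068. Among genes outside both cell wall lists, ADI1, of the methionine salvage pathway, rose by 4.20 ± 0.10. Its lowest value in N22 heat was 10.73 and its highest in N22 control 6.87. Also in neither list, ALDP (shared probe set), an aldolase, was at least 18.1-fold higher, and the glutaredoxin gene GRXC10 rose by 3.78 ± 0.072.

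Genes of cell division were more often lower than higher in N22 heat, where 33.5% of all genes were lower and 29.6% higher. Of 45 cell cycle genes, 21 were lower and 11 higher (median -0.27), or 27 and 7 under median centring. Of 15 meiosis genes, 5 were lower and 4 higher. Of 43 kinesin and microtubule genes, 32 were called lower and 3 higher, with a median of -0.70. The beta-tubulin gene TUB6 had 8.05, 7.97 and 8.19 in N22 heat, against 10.13, 10.08 and 10.06 in N22 control. KIN12E was at least 2.47-fold lower, KIN14E fell by 1.84 ± 0.34, and KIN7J stood against the list, at least 1.99-fold higher. Of 38 genes of DNA replication and chromatin assembly, 25 were lower and 3 higher (median -0.39), with the polymerase subunit gene POLD1 (shared probe set) falling by 1.46 ± 0.15 and TOP3B by 1.16 ± 0.17.

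Small RNA genes were lower as well. Argonaute proteins load small RNAs, Dicer-like proteins cut them and RNA-dependent RNA polymerases copy their templates. Of 21 such genes, 12 were lower, 3 higher and 6 not called, against 33.5% lower and 29.6% higher over all genes. The list median was -0.72. AGO18 (LOC4343201), known in rice for its part in antiviral defence, had 7.60, 7.60 and 7.74 in N22 heat, against 9.72, 9.72 and 9.66 in N22 control. AGO1A fell by 1.43 ± 0.056 and DCL2A (shared probe set) by 1.30 ± 0.094. AGO1D (shared probe set) went the other way, with 8.30, 7.94 and 8.29 in N22 heat, against 6.23, 6.62 and 6.48 in N22 control. Of 31 genes of ribosomal proteins and translation factors, 18 were lower and 4 higher (median -0.22). Under median centring, which lowers every difference, 25 were lower and 2 higher (median -0.41). The elongation factor gene EF-1-beta fell by 0.97 ± 0.059.

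Late embryogenesis genes were mostly lower, and other seed genes moved in both directions. Of 8 late embryogenesis and dehydrin genes, 5 were lower and 1 higher (median -0.70). RAB21 fell on both probe sets, and the plain one had 4.37, 4.23 and 4.71 in N22 heat, against 7.12, 7.29 and 7.33 in N22 control. Of 14 seed storage and allergen genes, 5 were higher and 3 lower (median 0.04), against 29.6% higher and 33.5% lower over all genes. Of 16 starch genes, 6 were lower and 3 higher, against 33.5% lower over all genes. Those lower included AGPS2 (shared probe set), of ADP-glucose synthesis, and the branching enzyme gene SBE (shared probe set), which fell by 1.0 ± 0.081 and 0.91 ± 0.12 at levels above 13 in both groups. In the seed storage and allergen list, the glutelin gene GLUA-3 averaged 15.19 in N22 heat and 14.83 in N22 control. RA17 had the largest fall of that list, averaging 10.55 in N22 heat and 12.93 in N22 control. Of 8 tapetum and pollen wall genes, 4 were lower and 0 higher, with MTR1 falling by 1.18 ± 0.068 and MSP1 by 1.02 ± 0.086. However, 4 of these 8 genes lay at background in both N22 groups and have no measured level. The fitted list median of -0.325 shrank to -0.0097 when no value was allowed under background, so the list as a whole shows no clear fall. Other large falls included the peroxidase gene PRX112, at least 5.05-fold lower, and the arginine methyltransferase gene PRMT5, with 8.46, 8.31 and 8.26 in N22 heat, against 10.28, 10.61 and 10.65 in N22 control. The S-adenosylmethionine synthetase gene SAM2 fell on both named probe sets, by 2.43 and 0.62.

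**Figure D4:**
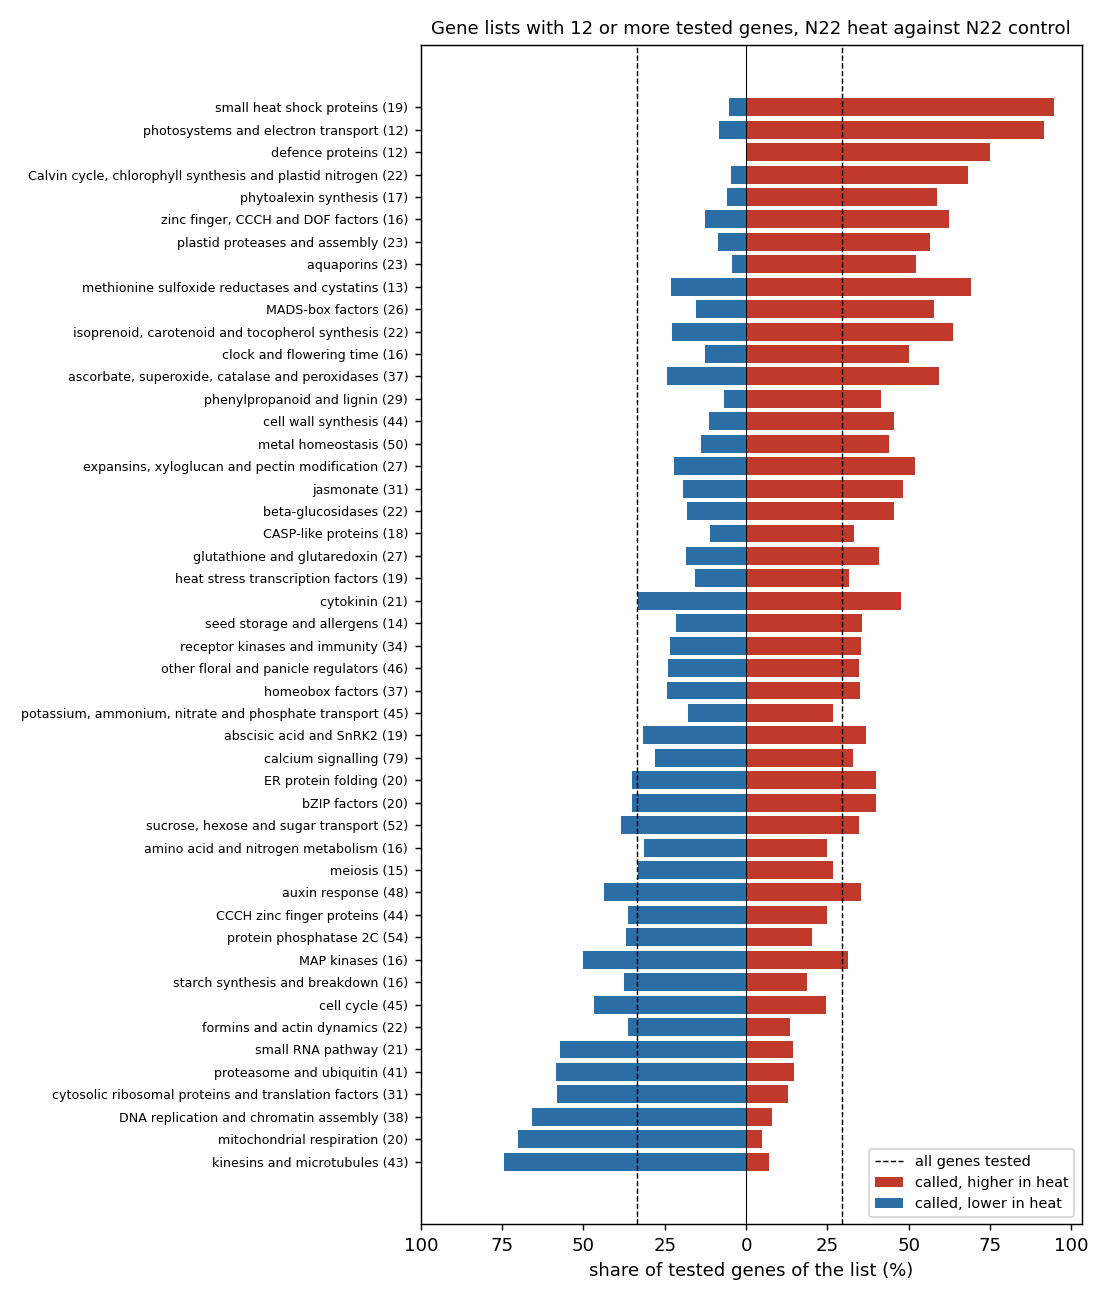
Share of the tested genes of each list (%, horizontal axis) called higher in N22 heat (red, right of 0) and lower (blue, left of 0), for lists with at least 12 tested genes, with the number tested in brackets. Dashed lines mark the shares over all genes, 29.6% higher and 33.5% lower; small heat shock proteins (18 of 19 higher) and kinesins and microtubules (32 of 43 lower) stand at the ends.

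The heat effect in N22 was tested against that in IR64 as a difference of differences, which was called for 16508 of 29801 probe sets (55.4%) and 10561 of 16069 genes (65.7%). Over all genes, the effect was more positive in N22 for 35.5% and more negative for 30.2%. The panicles of the cultivars were not alike in content: the developing grain markers summed to 16.23 to 16.48 on the N22 arrays and to 4.43 to 5.06 on the IR64 arrays, near background. Green tissue markers summed to 11.78 to 11.99 in N22 control and 15.43 to 15.53 in IR64 control. The part of these gaps in the differences of heat effects was not tested, and every value below stands beside them. Of the 19 small heat shock protein genes, 16 had a more positive effect in N22 and 2 a more negative one, and all 12 photosystem genes a more positive one. Of the 38 DNA replication genes, 18 had a more negative effect in N22 and 0 a more positive one. HSP17.7 differed by 3.49 ± 0.073 with heat in N22 and by -1.84 ± 0.073 in IR64. HSFB2C differed by 1.87 in N22 and by -3.10 in IR64, a difference of effects of 4.97 ± 0.15 (adjusted p = 4.28e-09, limma). For HSP16.9A the heat effect was larger in IR64, at 3.51, than in N22, at 1.40. PSAH averaged 11.85 in N22 heat and 9.03 in N22 control, against 13.03 in IR64 heat and 12.98 in IR64 control, so N22 control was the lowest of the 4 groups. N22 control was also the lowest for CYP701A8, with 9.09 in N22 heat, 4.48 in N22 control, 11.16 in IR64 heat and 11.32 in IR64 control. GLT2 rose in both, by 4.50 in N22 and 3.94 in IR64, and IAA14 fell in both, by 2.16 and 2.23, with a difference of effects of 0.06 ± 0.31 that was not called.

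**Figure D5:**
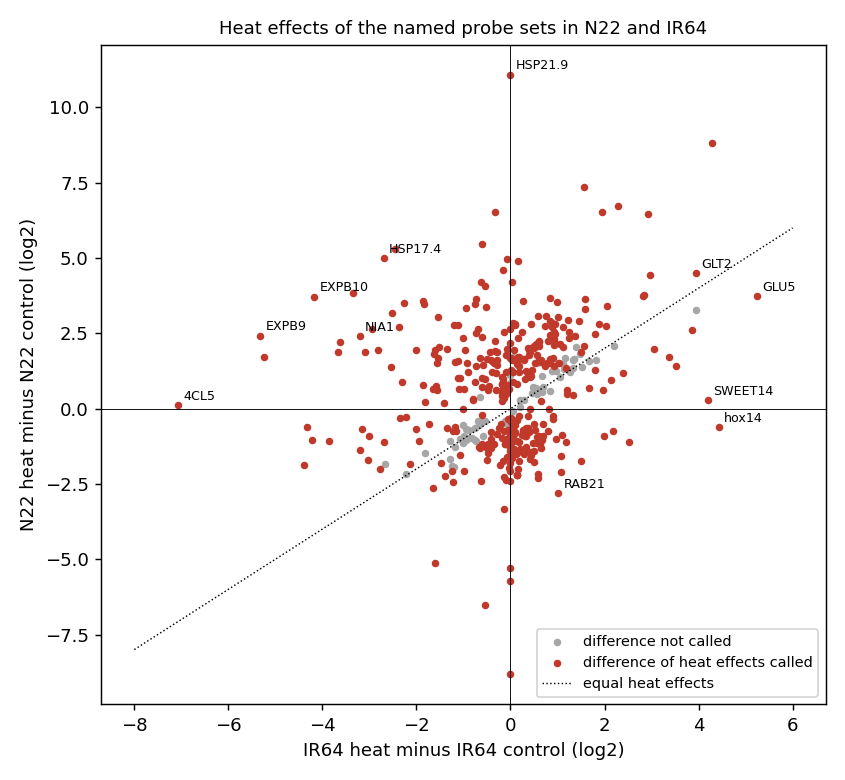
Heat minus control in N22 (log2, vertical axis) against heat minus control in IR64 (log2, horizontal axis) for the named probe sets, red where the difference of heat effects was called and grey where it was not, with equal effects on the dotted line. HSP17.4 lies at 5.00 in N22 and -2.70 in IR64, and EXPB9 at 2.42 in N22 and -5.33 in IR64; points with a group at background, HSP21.9, EXPB10 and 4CL5 among them, are drawn at fitted values that are not measured sizes.

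Control probe sets of the array moved in part. The difference between the 3' and 5' ends of GAPDH averaged 8.81 ± 0.17 in N22 heat and 8.59 ± 0.14 in N22 control (SD, n = 3; two-sided exact permutation p = 0.2, where 0.1 is the smallest possible). That of ubiquitin averaged 2.04 ± 0.055 in N22 heat and 2.21 ± 0.07 in N22 control, lower on every heat array (exact permutation p = 0.1). The 3' end was thus much brighter than the 5' end on every N22 array, by 8.48 to 8.99 for GAPDH and 1.97 to 2.29 for ubiquitin. The part of these gaps in the gene results was not tested. For ribosomal RNA, the 5.8S, 28S and 25S values were 3.07, 1.76 and 1.16 above those of N22 control, with the groups apart (exact permutation p = 0.1 each), and the 18S value differed by 0.01. Spike-ins added at hybridisation and at labelling differed by -0.16 and 0.16. The part of the ribosomal RNA signal in the gene results was not tested.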

How the data were processed

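The authors deposited 1 table of log2 expression values, made with GCRMA per the submitters' processing notes; no version is named. It holds 57381 probe sets, of which 123 control and 64 reporter probe sets were left out. Its settings are not stated, and a shift of most genes at once could be hidden by normalization. A probe set was tested where it exceeded the table's median, 2.35, on at least 3 of 12 arrays. The 4 group means were fitted with limma 3.58.1 in R 4.3.3 (eBayes, 8 residual and 1.79 prior degrees of freedom), checked on simulated data. The number of arrays limits precision.

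The array's annotation paired 22436 probe sets with 1 gene, 95 with several and 34850 with none; 2458 genes had an informative name in the gene table of ASM3414082v1. Members and lists were chosen with earlier results of these data known, and 11 of 66 lists after reading the gene names. Named are the 15 largest rises and falls with a name, the 5 largest of all, the 8 largest differences of heat effects each way, all heat shock genes, up to 4 and 2 members per list, and neighbours in runs. Alternatives covered scaling, filters, background, variance settings, the replicate number as a block, shared probe sets and each array left out. No sequences were used here.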

Additional observations from a re-analysis of the deposited data

Results flagged for a closer look

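The 16 named genes with the largest tested differences between the heat effect in N22 and that in IR64 are listed, each with the fitted N22 effect minus the IR64 effect (log2, limma, 3 arrays per group). Where a group lay at background, the fitted value is not a measured size and its rank has no meaning. Grain transcripts were abundant in both N22 groups and near background in both IR64 groups, and the part of this gap in the values was not tested.

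More positive in N22, with all 4 groups above background, were EXPB9 (7.76), HSP18.0 on its plain probe set (7.74) and HSP17.4 (7.70). HSP17.4 averaged 13.36 in N22 heat and 8.36 in N22 control, against 6.44 in IR64 heat and 9.14 in IR64 control. EXPB9, a beta-expansin gene, differed with heat by 2.42 in N22 and by -5.33 in IR64. DAHPS2 (shared probe set, 6.96), of aromatic amino acid synthesis, averaged 3.85 in IR64 heat, under background. HSP21.9 (11.09) was above background in N22 heat alone. EXPB10 (7.88) was at background in N22 control and IR64 heat. HSP18.6 (7.18) was at background in IR64 heat and on 2 of the 3 N22 control arrays, and its shared probe set gave 5.68. The lignin pathway gene 4CL5 (7.18) averaged 11.07 in IR64 control and was under background on average in the other groups, so N22 gives it no measured effect.

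More negative in N22, with all 4 groups above background, was the mannan synthase gene CSLA9 (-3.17). AGO14 (-3.63), OsPP2C31 (-2.93) and LEA19 (shared probe set, -2.89) fell in N22 and were at background in IR64 control but not in IR64 heat. SWEET14 (-3.93), a sugar transporter gene, was not called in N22 and was at background in IR64 control. The homeobox gene hox14 (-5.03) was at background in N22 heat and IR64 control. RAB21 (-3.82) fell in N22 and was at background in both IR64 groups. OC-VI (-3.21), a cystatin gene, was at least 2.9-fold lower in N22 heat than in N22 control and at background in both IR64 groups.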

How the results depend on the processing

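Of 424 named probe sets called for heat in N22, 382 were called under every alternative in which they were tested and 42 were lost under at least 1; none reversed while called. Median centring, which by construction shifts every difference, moved 2 counts by over 1.5 times: 13431 probe sets were called lower, against 8291 as deposited, and 2894 were lower by at least 2-fold, against 1814. It gave 5563 higher, against 7121, and quantile normalization gave 6579 higher and 9233 lower. Leaving out each N22 array in turn gave 14111 to 14721 called, 3197 to 3405 higher and 1786 to 1898 lower by at least 2-fold. The difference of heat effects from IR64, called for 16508 probe sets, was called for 15661 to 16282 with any array of the series left out and for 20407 under median centring. Without shared probe sets, an alternative added after seeing the data, 11575 of 22453 were called. The replicate numbers did not pair the samples: same-numbered N22 arrays deviated together at 0.0387, 3e-04 and 0.1, and with the replicate block 15144 probe sets were called. The 3' minus 5' difference of GAPDH kept its sign, at 0.14 to 0.31 with an N22 array left out. Runs of neighbouring genes numbered 31 higher and 1 lower with values raised to background, against 46 and 6, since members at background lost their size. Probe sets above background only in heat numbered 505 to 882 and only in control 373 to 479 over the alternatives. Values at background, where fold sizes are only bounds, and 3 arrays per group limit what these data resolve.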
